A study of Homo sapiens with 4 samples.

Results

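The metallothioneins are a family of small cysteine-rich proteins, and their genes were followed here in Huh7 cells given hydrogen peroxide (H2O2) or mock medium. The genes were chosen by name, as the functional MT1 genes, MT2A and the transcribed pseudogene MT1L. Of the 10 names, 9 (MT1A, MT1B, MT1E, MT1F, MT1G, MT1H, MT1M, MT1X and MT2A) had a row among the 42067 gene names of the tables, each with 1 transcript model, and MT1L was not analysed here. All 9 were among the 27702 genes that passed the filter of at least 10 reads in at least 2 of the 4 libraries. Huh7 is an established human hepatocellular carcinoma line. The mock group was kept in medium for 4 days and the H2O2 group in medium with 300 µM H2O2 for 4 days, and in both the medium was replaced daily. Each group had 2 libraries, 1 with the letter H in its title and 1 with the letter Q. What the letters stand for is not stated, and nothing said that the libraries came from separate cultures, so p-values measure the spread between these libraries, which may be technical.

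Metallothioneins bind zinc and copper ions through clusters of cysteine thiolates, buffer free zinc, take up cadmium and other toxic metals, and can be oxidised by reactive oxygen species with release of their zinc. Their genes are switched on by the zinc-sensing transcription factor MTF1, which binds metal response elements in their promoters, and also respond to glucocorticoid hormones, oxidants and low oxygen. Liver is a main site of their expression. In the reference order the human genes form 1 cluster on chromosome 16 between BBS2 and NUP93, running MT4, MT3, MT2A, MT1L, MT1E, MT1M, MT1A, MT1B, MT1F, MT1G, MT1H and MT1X, with pseudogenes in between. The deposited tables placed all 9 measured genes on chromosome 16, with MT1G on the minus strand and the other 8 on the plus strand.

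The promoters below are shown because the core of the metal response element is the sequence through which metals and oxidants are known to act on these genes. RefSeq promoter sequences (GRCh38.p14) matched 4 of the 9 genes by symbol, the 2 most abundant (MT2A and MT1X) and the 2 least abundant (MT1H and MT1B). The 250 bases before the annotated start are printed 5′ to 3′ on the plus strand, at chr16:56608334-56608583 for MT2A, chr16:56682220-56682469 for MT1X, chr16:56669564-56669813 for MT1H and chr16:56651636-56651885 for MT1B. Capitals mark the core, searched as TGCACNC and TGCGCNC and as their reverse complements GNGTGCA and GNGCGCA, and no marked match overlaps another.
MT2A: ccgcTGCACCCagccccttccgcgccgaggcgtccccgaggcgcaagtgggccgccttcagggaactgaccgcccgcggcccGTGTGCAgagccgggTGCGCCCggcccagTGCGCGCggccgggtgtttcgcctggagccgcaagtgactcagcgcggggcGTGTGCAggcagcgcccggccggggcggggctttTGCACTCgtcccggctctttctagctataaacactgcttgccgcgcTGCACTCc
MT1X: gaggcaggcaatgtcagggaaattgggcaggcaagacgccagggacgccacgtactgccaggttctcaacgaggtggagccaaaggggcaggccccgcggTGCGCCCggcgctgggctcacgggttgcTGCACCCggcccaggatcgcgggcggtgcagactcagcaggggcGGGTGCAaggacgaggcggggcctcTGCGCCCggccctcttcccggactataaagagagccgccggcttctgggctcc
MT1H: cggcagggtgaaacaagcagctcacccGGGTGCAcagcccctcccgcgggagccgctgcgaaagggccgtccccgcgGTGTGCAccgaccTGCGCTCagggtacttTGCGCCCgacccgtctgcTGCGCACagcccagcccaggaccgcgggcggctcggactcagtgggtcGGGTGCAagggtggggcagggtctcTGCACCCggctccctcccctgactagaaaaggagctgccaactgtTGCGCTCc
MT1B: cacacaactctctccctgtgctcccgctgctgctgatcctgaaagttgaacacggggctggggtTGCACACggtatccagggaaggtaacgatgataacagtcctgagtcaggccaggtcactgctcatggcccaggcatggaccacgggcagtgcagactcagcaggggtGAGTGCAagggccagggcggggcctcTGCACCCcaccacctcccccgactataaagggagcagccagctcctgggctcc
The MT2A window held 7 cores, that of MT1X 4, that of MT1H 8 and that of MT1B 3. Among 35116 promoter windows of the same length, 24.8% held at least 1 core, 1.58% at least 3, 0.370% at least 4, 0.0313% at least 7 and 0.0171% at least 8. The number of cores did not order these 4 genes by level, since MT1H, with the most cores, was among the 2 least abundant. These matches describe letters in the windows and are no evidence of binding in these cells.

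The libraries held 78126878 to 88409567 mapped read mates, of which 9.01% to 10.6% aligned to more than 1 place. With 1 model per gene the counted reads came to 103851326 to 113082498 per library, above the mapped mates in each. Levels are TMM-normalised counts per 1e+06 reads (CPM), which set 1 read at 0.00825 to 0.0103 CPM. Of 6 hepatocyte markers, 5, with ALB, APOB and AFP among them, lay between 185 and 9136 CPM over the libraries, and TTR between 14.8 and 25.9 CPM. Of 14 fibroblast, endothelial and blood markers, 10 averaged under 1 CPM and 1, the collagen gene COL1A1, averaged over 5 CPM.

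The family was led by 4 genes. In the deposited FPKM values the mean over the 4 libraries was 380.4 for MT2A, 177 for MT1X, 142 for MT1F and 138 for MT1E, then 28.4 for MT1M, 25.3 for MT1G, 19.4 for MT1A, 6.58 for MT1H and 4.17 for MT1B. Neighbours in this order overlapped in their ranges over the libraries, except MT1E, at 55.6 FPKM or more, and MT1M, at 50.3 FPKM or less. FPKM is by definition per length, but here 1 unit stood for 8.76 to 10.2 reads in mock library H for all 9 genes, whose GENCODE v29 transcripts run from 380 to 829 bases. The order is therefore close to one of read counts, and mean CPM gave the same order. In H2O2 library H, 1 unit stood for 9.17 to 10.8 reads for 7 genes but for 20.7 reads for each of MT1H and MT1B, which had 4 and 5 reads there, so FPKM understates them in that library relative to the others.

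**Figure D1:**
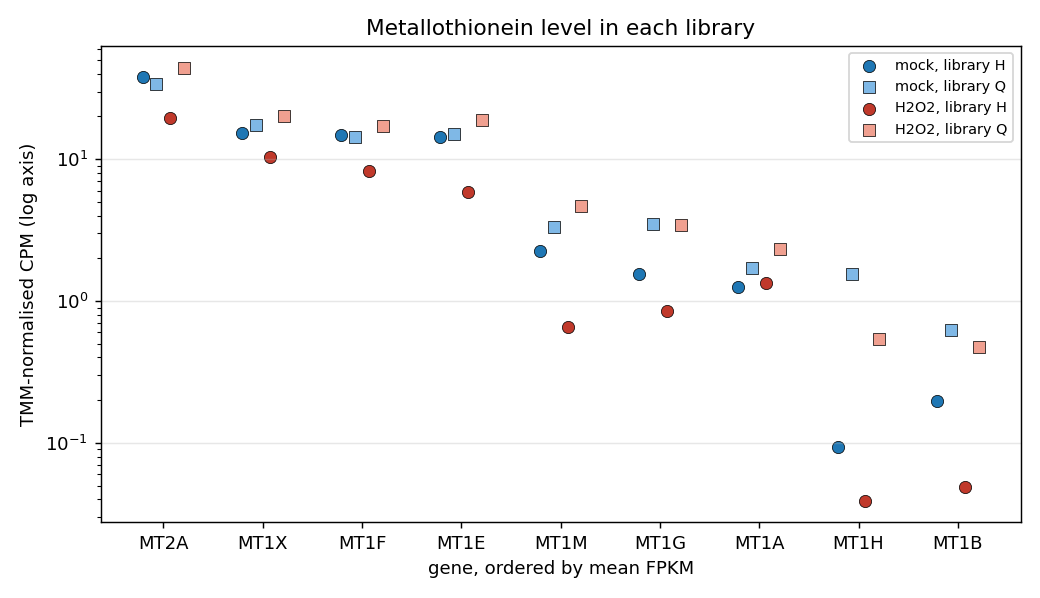
TMM-normalised CPM (log axis) of each metallothionein gene in each of the 4 libraries, with blue for mock, red for H2O2, circles for libraries H and squares for libraries Q. The H2O2 library H is the lowest of the 4 for 8 genes, and MT1H spans 0.0392 to 1.55 CPM.

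Values of 4 libraries are given from here on in the order mock H, mock Q, H2O2 H, H2O2 Q. MT2A, the classical MT2 isoform, measured 38.1, 34.0, 19.5 and 44.2 CPM. The 2 H2O2 libraries thus lay on either side of the mock pair, and the groups overlapped. The fitted log2 fold change of H2O2 over mock was −0.18 (SE 0.41, 95% interval −1.21 to 0.85, edgeR quasi-likelihood test, adjusted p = 0.922). MT1X, MT1F and MT1E, widely expressed MT1 isoforms, had the same arrangement. MT1X measured 15.2, 17.4, 10.4 and 20.2 CPM. MT1F measured 14.7, 14.3, 8.31 and 17.2 CPM. MT1E measured 14.3, 15.1, 5.90 and 18.9 CPM. For each of the 4 the H2O2 library H was lowest and the H2O2 library Q highest.

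MT1M and MT1G, which have been studied as genes of reduced expression in liver cancer, came next. MT1M measured 2.26, 3.35, 0.656 and 4.70 CPM. MT1G measured 1.55, 3.51, 0.852 and 3.46 CPM. The MT1G values of both Q libraries were close together and above both H libraries. MT1A measured 1.26, 1.71, 1.34 and 2.34 CPM, and it was the 1 gene of the 9 with a positive fold change (0.31, SE 0.38, edgeR, adjusted p = 0.856).

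MT1H and MT1B were the scarcest. MT1H had 9, 188, 4 and 65 reads, or 0.0930, 1.55, 0.0392 and 0.543 CPM. MT1B had 19, 76, 5 and 57 reads, or 0.196, 0.627, 0.0490 and 0.477 CPM. Both were low in the H libraries and high in the Q libraries of each group. MT1H reached 10 reads in its Q libraries alone, so the read filter kept it through those libraries. Counting error was wide for it, since the H2O2 over mock ratio in libraries H was 0.421 with an exact 95% interval of 0.0948 to 1.51, while in libraries Q it was 0.350 (0.260 to 0.467). For MT1B the ratio was 0.249 (0.0728 to 0.691) in libraries H and 0.760 (0.529 to 1.09) in libraries Q. These intervals cover counting error alone. They take each counted read as independent, although counted reads exceeded the mapped mates in each library, so they may be too narrow.

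The other 3 family rows were near the detection limit. MT3, the brain isoform, had 2, 6, 1 and 6 reads. MT4, the isoform of stratified epithelia, had 2, 4, 0 and 1 reads, and 0 reads in the H2O2 library H allows a level of up to 0.0294 CPM. MT1P2, a name for MT1HL1, which is an MT1H-like gene on chromosome 1, had 2, 5, 1 and 4 reads. None of these 3 passed the filter.

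The members can share reads because their transcripts are alike. In GENCODE v29 transcripts, 20.4% of the stretches of 50 bases in MT1H also occurred in another family transcript, as did 20.2% in MT1G, 16% in MT1X, 7.05% in MT1M, 5.76% in MT1A, 5.34% in MT1E, 3.59% in MT1F and 2.17% in MT2A, and 0% in MT1B. For stretches of 100 bases the share was 3.36% in MT1H, all of it with MT1HL1, and 0% in the other 8. Read length and the handling of reads with several alignments are not stated, so the part of shared reads in these values was not tested.

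The comparison of H2O2 with mock asked how 4 days of the oxidant changed the transcriptome of these cells. For the metallothioneins the 2 pairs of libraries went different ways. Between the H libraries 8 of 9 genes were lower in H2O2 (50.7% of all genes tested were), with a median log2 ratio of −0.97 against −0.01 over all genes. Between the Q libraries 6 of 9 were higher (49.1% of all genes tested), with a median of 0.26 against −0.01. The 391 genes of the members' length range (380 to 829 bases, mean CPM of at least 1) had a median of 0.23 between the Q libraries. Their median between the H libraries was 0.05. The Q library median of the members was thus near that of genes of like length. The ratio was below 1 between the H libraries and above 1 between the Q libraries for 5 genes, MT2A, MT1X, MT1F, MT1E and MT1M, an arrangement seen in 16.6% of all genes tested. With 1 library in each cell of treatment and letter, the difference between the letters in the response was not tested.

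Among the leading genes the H library ratio was 0.512 for MT2A, 0.679 for MT1X, 0.566 for MT1F and 0.412 for MT1E. The Q library ratio was 1.3, 1.17, 1.20 and 1.26 for the same genes. MT1M had the widest gap, with 0.290 between the H libraries and 1.40 between the Q libraries. MT1A was above mock in both pairs (1.06 and 1.37), and MT1H and MT1B were below mock in both. MT1G, at 0.550 between the H libraries, was level between the Q libraries at 0.987.

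**Figure D2:**
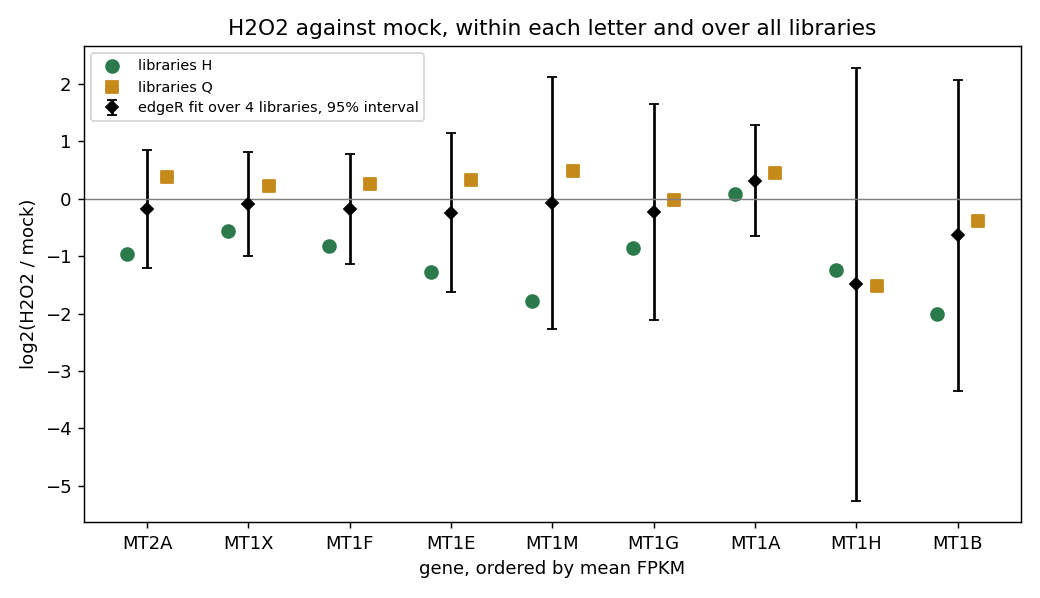
Log2 ratio of H2O2 over mock for each gene, between the H libraries (green circles), between the Q libraries (ochre squares) and as fitted by edgeR over all 4 libraries (black diamonds with 95% intervals). All 9 intervals include 0, and 5 genes have a negative H ratio with a positive Q ratio.

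Over both pairs 0 of the 9 genes passed 5% after adjustment over all genes (edgeR quasi-likelihood test), where 0% of the 27702 genes tested passed. At an unadjusted p under 0.05 edgeR called 0 of the 9 and 6.86% of all genes, and DESeq2 called 0 of the 9 and 0.498% of all genes after adjustment. With the letter as a block edgeR called 0 of the 9 and 0.152% of all genes after adjustment. The mock and H2O2 values overlapped for 9 of 9 members, while 18.1% of all genes lay wholly higher and 21.3% wholly lower in H2O2. The fitted fold changes ran from −1.49 (SE 1.48) for MT1H to 0.31 for MT1A, with a median of −0.19 against −0.03 over all genes. That median was 0.31 without H2O2 library H, 0.24 without mock library Q and −1.31 without H2O2 library Q. The intervals of the 4 leading genes were narrowest for MT1X (−1.0 to 0.82) and widest for MT1E (−1.63 to 1.14), so with 2 libraries a group, changes within them were not detectable.

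Added over the 9 genes, metallothionein transcripts came to 87.7, 91.5, 47.0 and 112 CPM. The mock pair differed little (89.6 ± 2.70 CPM, SD, n = 2), whereas in H2O2 library Q was 2.39-fold above library H (79.6 ± 46.1 CPM, SD, n = 2). The difference between the group means was smaller than the SD of the H2O2 pair, and the 2 H2O2 sums lay on either side of both mock sums. A two-sided exact permutation test of 2 against 2 libraries cannot give a p below 0.333. It therefore could not decide whether the summed level differed between the groups. MT2A gave 43.4%, 37.1%, 41.5% and 39.4% of the sum in the 4 libraries. MT2A, MT1X, MT1F and MT1E together gave 88.3% to 93.9%. In a bulk library fewer cells with the transcripts and less RNA per cell cannot be told apart.

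**Figure D3:**
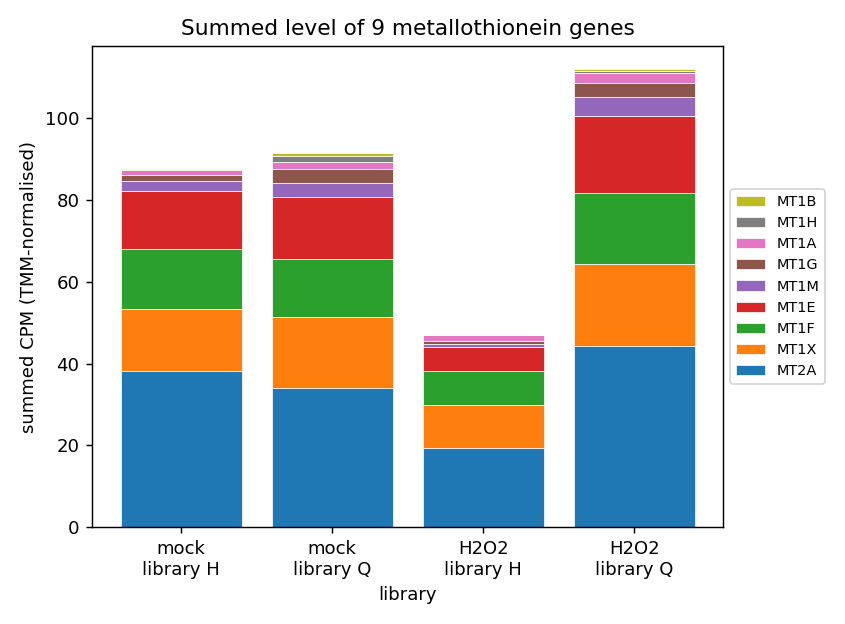
Summed TMM-normalised CPM of the 9 metallothionein genes in each library, stacked by gene from MT2A at the base to MT1B at the top. The sums are 87.7 and 91.5 CPM in mock and 47.0 and 112 CPM in H2O2, and MT2A is the largest part in each library.

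The libraries were also compared by letter, in a model with treatment and letter as terms that was chosen after the data had been seen. MT1H passed the read filter through its Q libraries alone, and MT1B with 1 H library, so for both a high Q level decided entry and their difference is given as values without a test. The other 7 genes had at least 10 reads in both H libraries. All 7 were higher in Q, with a median log2 difference of 0.62 against 0.00 over the 25073 genes that met the same condition. MT1G passed 5% (edgeR, 1 of 7, where 2.14% of the 25073 genes were called higher in Q, and 4.66% of all 27702 genes were called in either direction). At an unadjusted p under 0.05, 4 of 7 were higher in Q, as were 10.6% of the 25073 genes. MT1G differed by 1.59 (SE 0.29, 95% interval 0.90 to 2.28, edgeR quasi-likelihood test, adjusted p = 0.0389), with 2.26-fold in mock and 4.06-fold in H2O2. The model left 1 residual degree of freedom, and with the letter as its sole term edgeR gave MT1G an adjusted p of 0.179.

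MT1M came next among the 7, at 1.65 (SE 0.53, edgeR, adjusted p = 0.124). Both Q libraries lay above both H libraries for 5 of 7 genes, as they did for 21.8% of the 25073 genes, and the exceptions were MT2A and MT1F, whose mock libraries were ordered the other way. MT1H was higher in Q by 16.7-fold in mock and by 13.9-fold in H2O2. MT1B was higher in Q by 3.20-fold in mock and by 9.73-fold in H2O2. Both entered through a high Q level, so these values are no test. In mock the 4 leading genes summed to 82.3 CPM in H and 80.8 CPM in Q. The other 5, MT1H and MT1B included, summed to 5.36 and 10.7 CPM, so the entry of those 2 through Q bears on this sum. In H2O2 the same sums were 44.0 and 101 CPM for the 4 leading genes and 2.94 and 11.5 CPM for the other 5. With MT1H and MT1B included, the H2O2 ratio of Q over H was above 1 for 9 of 9 genes and the mock ratio for 7. Of all tested genes with reads in both libraries, 51.4% and 52.4% had such a ratio. The high Q level at entry decided these counts in part, so they are no test.

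**Figure D4:**
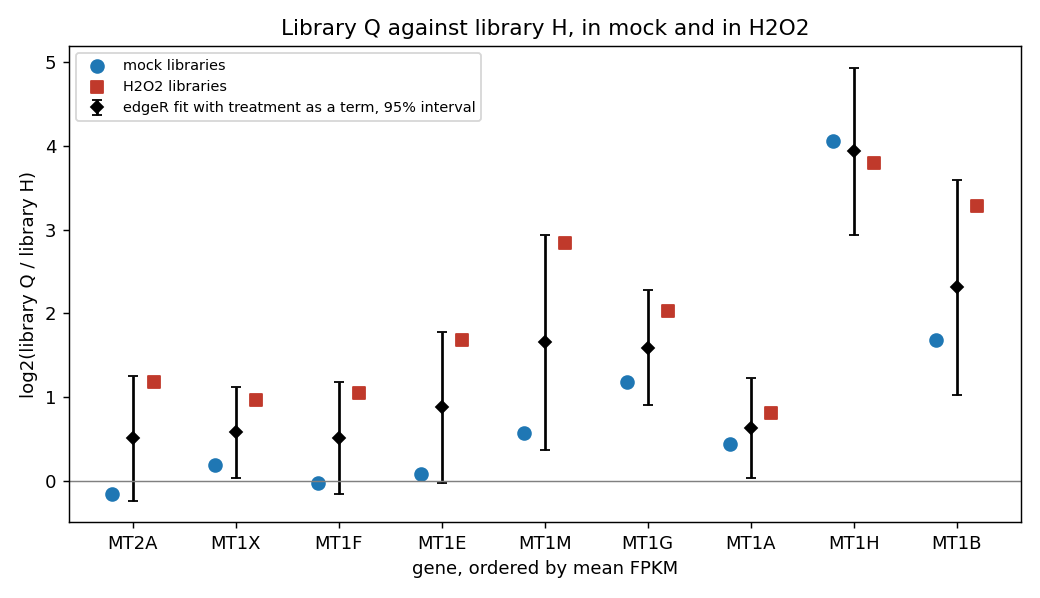
Log2 ratio of library Q over library H for each gene in mock (blue circles), in H2O2 (red squares) and as fitted by edgeR with treatment as a term (black diamonds with 95% intervals). The H2O2 ratio is positive for all 9 genes and the mock ratio for 7, and MT1H lies near 4 in both. MT1H and MT1B entered through a high Q level, so their ratios and intervals are no test, and the counts of positive ratios include them.

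Other features of the libraries moved with the letter. The 6 hepatocyte markers had a median Q over H log2 difference of −1.03, with 5 of 6 lower in Q and ALB and AFP past 5% (edgeR, adjusted p = 0.0331 and 0.0320), both named after their values were seen. The 6 fibroblast markers summed to 20.5 and 15.8 CPM in libraries H and to 26 and 18.2 CPM in libraries Q. Most of each sum was COL1A1, at 18.7 and 14.3 CPM in H and 21.8 and 15.3 CPM in Q. Its letter difference was 0.16 (edgeR, adjusted p = 0.589). Among the fibroblast markers 5 of the 5 tested were higher in Q, as were 52.9% of all genes tested, with 0 past 5%. Of these the fibroblast gene LUM was at 0 reads in H2O2 library H. The endothelial markers summed to 2.36 to 3.01 CPM and the blood markers to 4.13 to 7.09 CPM, and haemoglobin HBB was at 0 in both H2O2 libraries. The part of these features in the metallothionein differences was not tested. As a check by transcript length, 391 genes of the members' length range (380 to 829 bases in GENCODE v29, mean CPM of at least 1) had a median Q over H difference of −0.30.

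Genes that handle zinc and copper outside the family were read next. Of 36 genes of zinc and copper transport, 35 were tested, 0 passed in either direction (edgeR; 1 at an unadjusted p under 0.05), and 23 were higher and 12 lower, with a median of 0.13. MTF1, the metal sensor of the metallothionein promoters, measured 15.4, 22.2, 20.4 and 24.2 CPM (0.24, SE 0.26). SLC30A1, the zinc exporter that MTF1 also switches on, measured 21.0, 36.3, 23.1 and 30.9 CPM (−0.09, SE 0.33). For SLC30A1 both Q libraries lay above both H libraries (letter difference 0.60, edgeR, adjusted p = 0.0855). Of genes with at least 10 reads in both H libraries, 5 of 7 metallothioneins and 21.8% of all 25073 had this order. A shared cause was not tested. Without mock library Q the H2O2 fold change of SLC30A1 was 0.36, and without H2O2 library H it was 0.11.

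The zinc and copper genes of lowest p were SLC30A3, a zinc transporter of vesicles (1.02, SE 0.34), SCO1, a copper chaperone of cytochrome oxidase (0.48, SE 0.20), and SLC39A4, a zinc importer (−0.67, SE 0.44). Each had an adjusted p of 0.721 or above in edgeR. SLC30A3 measured 1.96, 3.14, 6.02 and 4.38 CPM, so its groups did not overlap. By letter, 1 of the 35 genes was higher and 1 lower in Q past 5%, near the 4.66% of all genes called. These were the zinc exporter SLC30A2 (1.89, edgeR, adjusted p = 0.0289) and the importer SLC39A5 (−1.62, adjusted p = 0.0317), and both were named after their values were seen.

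Other known inputs to the family were read from lists of their usual targets. Of 13 glucocorticoid response genes 10 were higher in H2O2 (median 0.29) and 0 passed (edgeR; 3 at an unadjusted p under 0.05). Among the lowest p values were those of PER1, a clock repressor (0.68, SE 0.22), and FKBP5, a co-chaperone of the hormone receptor (0.89, SE 0.31). By letter 1 of the 13 passed 5%, beside 4.66% of all genes tested. It was TSC22D3, which was named with its value known and was higher in Q by 0.97 (edgeR, adjusted p = 0.0414). Of 9 NRF2 targets 5 were higher in H2O2 and 0 passed (median 0.05; 1 at an unadjusted p under 0.05). HMOX1, which breaks down heme, differed by −0.81 (SE 0.32) and OSGIN1 by −0.27 (SE 0.27), or 0.085 without mock library Q. By letter 8 of the 9 NRF2 targets were higher in Q (52.9% of all genes tested were), with a median of 0.39 and 0 called higher. NQO1, named with its value known, was called lower in Q (−0.72, edgeR, adjusted p = 0.0475).

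The 8 hypoxia genes included 7 lower in H2O2, with a median of −0.55 and 0 past 5% (edgeR; 0 at an unadjusted p under 0.05). Their median ratio was −0.69 between the H libraries and 0.33 between the Q libraries, and 5 of 8 had the same opposed signs as MT2A. In summed level the libraries that stood apart were not the same as for the family. The 8 summed to 2107, 484, 811 and 703 CPM, so in this sum the mock pair lay apart. In the metallothionein sum it was the H2O2 pair. Each sum is weighted to its most abundant genes. The 5 members below the 4 leading ones summed to 5.36 and 10.7 CPM in mock and to 2.94 and 11.5 CPM in H2O2. These sums include MT1H and MT1B, which entered through a high Q level, so the gaps within the pairs are no test. The part of low oxygen in the metallothionein levels was not tested. NDRG1, a stress-induced gene, differed by −1.24 (SE 0.73), the prolyl hydroxylase EGLN3 by 0.45 (SE 0.22) and the carbonic anhydrase CA9, with 5 to 33 reads, by −1.20 (SE 0.77). Without mock library H the NDRG1 value was 0.36.

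**Figure D5:**
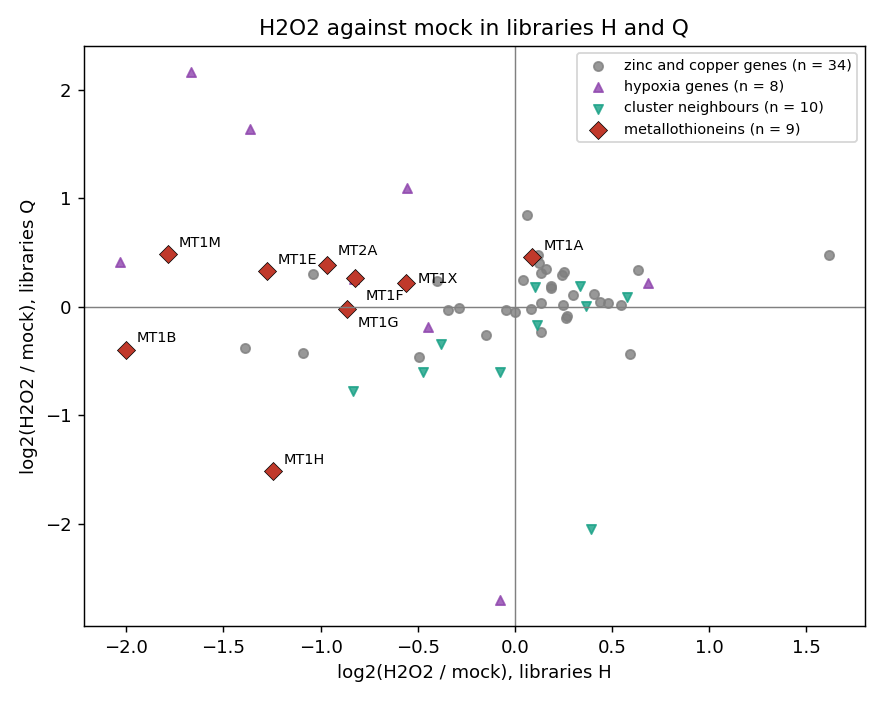
Log2 ratio of H2O2 over mock between the H libraries (horizontal axis) and between the Q libraries (vertical axis) for the 9 metallothioneins, 34 zinc and copper genes, 8 hypoxia genes and 10 neighbours of the cluster. Of the metallothioneins 5 lie in the upper left, lower in H2O2 in the H libraries and higher in the Q libraries. SLC39A2, with 0 reads in 1 library, is not drawn.

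The genes beside the cluster were examined for the same arrangement. Of 12 genes within and around it on chromosome 16, 10 were tested and 0 passed (edgeR, 1 at an unadjusted p under 0.05). A ratio below 1 in the H libraries with a ratio above 1 in the Q libraries was seen in 0 of 10. Over all genes tested 16.6% had it, and 10 genes are too few to tell 0 from that share. BBS2, a cilium gene on 1 side, measured 23.0, 22.5, 17.7 and 17.7 CPM (−0.36, SE 0.19). NUP93, a nuclear pore gene on the other side, named as the flanking gene, measured 76.0, 95.6, 98.0 and 95.7 CPM (0.18, SE 0.20). HERPUD1 of endoplasmic reticulum protein degradation (−0.53, SE 0.18) and the sodium chloride transporter SLC12A3 (−0.79, SE 0.43) were the others of lowest p, each with an adjusted p of 0.721 or above in edgeR.

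The genes whose profile over the 4 libraries lay closest to the mean metallothionein profile were NHLRC1, KLKB1 and 3 long intergenic RNA models. The distance, taken between centred log2 profiles, was 0.110 for NHLRC1 and 0.181 for KLKB1, which encodes plasma prekallikrein. The mean counted each member alike, MT1H and MT1B included. Apart from those 2, the members' own distances to it ran from 0.238 for MT1G to 1.13 for MT1A, with 0.907 for MT2A. A gene near the mean thus need not lie near the leading members. NHLRC1, a ubiquitin ligase gene, measured 1.13, 1.90, 0.568 and 2.03 CPM. KLKB1 measured 1.0, 1.97, 0.460 and 1.71 CPM. With 4 libraries such likeness was common, as 510 of the genes compared (2.79%) had a Pearson r above 0.95 with the profile.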

How the data were processed

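Per the labels' protocols, NucleoSpin TriPrep RNA went into TruSeq RNA libraries. The submitters' processing notes name TopHat 1.3.3, Bowtie 0.12.2, CASAVA and Cuffdiff, and name hg19, GRCh37 and mm8 as builds without roles. The counter, the annotation and strand use are not given in the sources used here. Per the file headers, the authors deposited read counts and FPKM for 58146 transcript models. Over the whole table the deposited FPKM does not follow read count over transcript length, and it was used only to order the members, beside CPM, and in alternatives. Alignment summaries gave mapped mates, a text value of other kind deposited per library.

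The model of highest count stood for each gene. Genes with at least 10 reads in at least 2 libraries were tested (27702), TMM-scaled, and compared by the two-sided edgeR 4.0.16 quasi-likelihood test (2 residual degrees of freedom, prior 3.21, common biological coefficient of variation 0.309), with Benjamini-Hochberg adjustment over all genes at 5% and SE taken from the F statistic. DESeq2 1.42.0 and limma 3.58.1 were alternatives, as were other scalings, filters, pseudocounts (1 and 0.1 on FPKM), summed models, the letter as a block and leaving out each library. Named genes were all members, the 3 of lowest p per list, MTF1, SLC30A1 and the 5 nearest profiles (mean CPM of at least 1, log2 of CPM + 0.01); 2 of these genes are not reported here. Members and lists were chosen with earlier results of these data known.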

Additional observations from a re-analysis of the deposited data

Results flagged for a closer look

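For 5 genes the H2O2 over mock ratio was below 1 between the H libraries and above 1 between the Q libraries. The Q log2 ratio exceeded the H log2 ratio by 1.35 for MT2A, by 0.78 for MT1X, by 1.08 for MT1F, by 1.61 for MT1E and by 2.27 for MT1M. Each ratio rests on 1 library per group, so the difference was not tested.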

How the results depend on the processing

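The members called in H2O2 against mock stayed at 0 in all 11 other settings and without each library, and so did the zinc and copper, glucocorticoid, neighbour, hypoxia and NRF2 lists. Over all genes the count was 9 with no filter, 138 with DESeq2 and 42 with the replicate block, and 0 to 11 without each library in turn. The members' median kept its sign in the 11 settings (−0.45 to −0.16) and ran from −1.31 to 0.31 without each library, and the log2 ratio of the summed level from −0.93 to 0.32. Without each library the fold change ran from −0.88 to 0.30 for MT2A, −0.64 to 0.31 for MT1X, −0.80 to 0.24 for MT1F, −1.31 to 0.37 for MT1E, −2.08 to 0.74 for MT1M, −1.56 to 0.48 for MT1G, −0.14 to 0.66 for MT1A, −4.34 to 1.65 for MT1H and −3.04 to 0.43 for MT1B. The same ranges were −1.98 to 0.36 for NDRG1, −0.56 to 0.085 for OSGIN1 and −0.43 to 0.36 for SLC30A1. The cause was not tested.

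For letter Q against H, 1290 genes were called, against 2120 with library totals, 3594 with no filter, 2789 with DESeq2 and 3 with the letter as the sole term. Of the members 2 were called, MT1H among them, against 4 with no filter and 0 with the letter as the sole term. The count was 1 over genes with at least 10 reads in both H libraries, where 2.14% of the 25073 genes were called higher in Q. The count of 2 includes MT1H, which entered through a high Q level, and the count of 4 includes MT1H and MT1B. Neither count is therefore a test of the family. Members that could be fitted stayed higher in Q in these settings, which were added after the data had been seen.

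The titles share letters, not stated pairs. The deviations of same-letter libraries correlated across 27702 genes at 0.63. With the replicate block MT1H gave −1.44 (edgeR, adjusted p = 0.153), and 0 members were called. With few reads the depth limits MT1H and MT1B, and 2 libraries a group limit the rest.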
